A study of Mus musculus with 32 samples.

Results

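The synapsins are a family of phosphoproteins on the surface of synaptic vesicles, encoded in the mouse by Syn1, Syn2 and Syn3. The 5 genes described here are these family members and the genes that overlap Syn1 on the opposite strand, Araf and Timp1, out of 23958 rows in the count table. Syn1 was chosen by its counts in these same mice, because its level differed widely between donor groups. Its values are therefore a description and carry no test. Syn2 and Syn3 were taken as the rest of the family, and Araf and Timp1 for their position, with earlier results of these data known.

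Counts came from the frontal cortex (prelimbic and infralimbic areas) of 32 mice inoculated with the gut microbiota of a primate. The donor was human for 12 mice, squirrel monkey (Saimiri boliviensis) for 8 and macaque (Macaca mulatta) for 12, and no uninoculated mice are in the comparison. The sources used here do not give strain, genotype, age or the state of the recipients' own microbiota. The labels place the mice in 6 batches, A and B human (4 and 8 mice), C and D squirrel monkey (4 mice each), E and F macaque (5 and 7 mice). Each batch and each plate column of libraries held 1 donor species, so donor cannot be told apart from batch or plate column. Replicate numbers below only name mice, in order of deposit, and pair none. Libraries were tag-based (TagSeq), which reads each transcript near its 3′ end.

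Synapsins tether vesicles to each other and to actin in the reserve pool of the nerve terminal. Phosphorylation by calcium-dependent kinases and protein kinase A releases the vesicles when the neuron fires, and phosphatases reverse it. Syn1 and Syn2 are abundant in mature cortical neurons, whereas Syn3 is best known from developing neurons. Syn1 lies on the X chromosome, and its promoter is widely used to restrict transgenes to neurons. Araf encodes A-Raf, a kinase at the head of the RAF-MEK-ERK cascade. Timp1 encodes a secreted inhibitor of matrix metalloproteinases that reactive astrocytes make after injury.

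Because Syn1 is the member whose level differs most among mice, its promoter window is shown. It holds the 250 bases before its start site in the RefSeq annotation, chrX:20920919-20921168 of GRCm38.p6, minus strand, 5′ to 3′. Capitals mark TTCAGCACC, the left part of the site bound by the neuronal repressor REST, and TGACGTCA, the cyclic AMP response element.

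Syn1: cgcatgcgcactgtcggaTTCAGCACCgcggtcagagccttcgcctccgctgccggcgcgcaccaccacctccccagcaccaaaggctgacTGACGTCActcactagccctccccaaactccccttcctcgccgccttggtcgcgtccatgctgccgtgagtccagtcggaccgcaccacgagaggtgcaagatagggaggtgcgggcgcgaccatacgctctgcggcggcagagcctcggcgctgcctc

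The first motif began 232 bases and the second 159 bases before the start site. Both strands of 32851 promoter windows of the same length were searched. TTCAGCACC was found in 99 of them (0.301%) and TGACGTCA in 508 (1.55%), and the motifs share no bases in this window. Neither was found in the windows of Syn2 (2 entries), Araf or Timp1, and Syn3 had no entry. A match describes these letters only.

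In the GENCODE M21 annotation, Syn1 spans 60494 bases, and its first listed transcript has 13 exons and 3209 bases. Syn1 and Araf run towards each other and share 9 bases at their 3′ ends. Timp1 (4570 bases) lies wholly in intron 5 of that transcript and shares 0 bases with its exons. The other synapsin genes also hold a TIMP gene on the opposite strand. Timp4 lies inside Syn2 and shares 90 exon bases with it, and Timp3 lies inside Syn3 and shares 1733 exon bases with it. No other gene matched the last 300 bases of the transcripts of the 5 genes (at least 100 bases aligned at 95% identity). The sources used here do not give the counting tool or say whether counting used the strand. Reads in shared exon bases therefore cannot be told apart. This makes Syn3 and Timp3 uncertain, and Syn2 and Timp4 less so. Syn1 shares 9 bases with Araf, at the 3′ ends near which TagSeq reads, and 0 exon bases with Timp1. Whether only exons were counted is not stated, and how reads there were assigned was not checked.

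**Figure D1:**
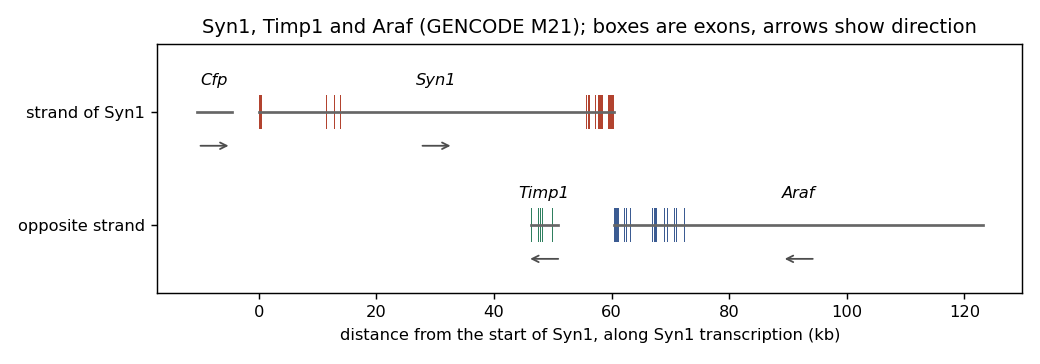
Map of Syn1, Timp1 and Araf, with distance from the Syn1 start site in kb along the x axis and the strand on the y axis; boxes are exons of the first listed transcript, lines are gene spans, and Cfp is drawn as a span only. Timp1 lies within an intron of Syn1, and the 3′ ends of Syn1 and Araf meet with 9 shared bases.

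Total counts ranged from 1204598 to 2089308 per human mouse, from 1193113 to 1588716 per squirrel monkey mouse and from 1035036 to 1673882 per macaque mouse. All listed markers of excitatory neurons (6 genes), inhibitory neurons (6), astrocytes (6), oligodendrocytes (6), microglia (5) and endothelium (4) had counts in every mouse, and Y-linked genes had 190 to 388 counts in every mouse. Summed excitatory neuron markers were 1623 to 3101 CPM (counts after scaling every library to 1 shared total) in human mice, 1786 to 2450 CPM in squirrel monkey mice and 1956 to 2832 CPM in macaque mice. Summed oligodendrocyte markers varied more, from 694 to 9313 CPM in human, 798 to 4827 CPM in squirrel monkey and 606 to 3318 CPM in macaque mice. Over 3000 CPM were 6 mice (3 human, 2 squirrel monkey and 1 macaque), and results are also given without them where this changes a call. That limit was chosen after seeing the data. In each group 3 of 5 striatal neuron markers had counts in every mouse. The 5 summed to 94.9 to 309 CPM in human, 102 to 148 CPM in squirrel monkey and 71.2 to 235 CPM in macaque mice. Summed meningeal fibroblast markers were 37.5 to 188, 56.7 to 145 and 40.4 to 208 CPM in the same order. In whole tissue, fewer cells of a type and less RNA per cell cannot be told apart.

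Syn1 (ENSMUSG00000037217, synapsin I) was read at either a high or a very low level in each mouse. In human batch A the 4 mice had 4, 4, 448 and 482 counts. In human batch B the 8 mice had 8, 791, 632, 17, 747, 15, 444 and 13 counts. Mice of both levels were thus present in each human batch, with 2 of 4 and 4 of 8 at the high level.

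Squirrel monkey batch C had 430, 427, 408 and 491 Syn1 counts. Batch D had 12, 411, 435 and 417 counts, so that 7 of 8 mice given squirrel monkey microbiota were high. Macaque batch E had 4, 3, 2, 2 and 6 counts. Macaque batch F had 2, 9, 6, 3, 5, 4 and 7 counts, and no macaque mouse reached the high level.

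No mouse lay between 11.35 and 268.8 CPM, the widest gap in the 32 values, with 13 mice above it and 19 below. The high values ran from 268.8 to 414.6 CPM. Among the low values, human batch A had 1.86 and 2.43 CPM and human batch B 6.77 to 11.35 CPM. The low squirrel monkey mouse had 7.99 CPM, and macaque mice had 1.42 to 5.78 CPM. The lowest human values lay inside the macaque range, and the low mice of human batch B lay above it.

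**Figure D2:**
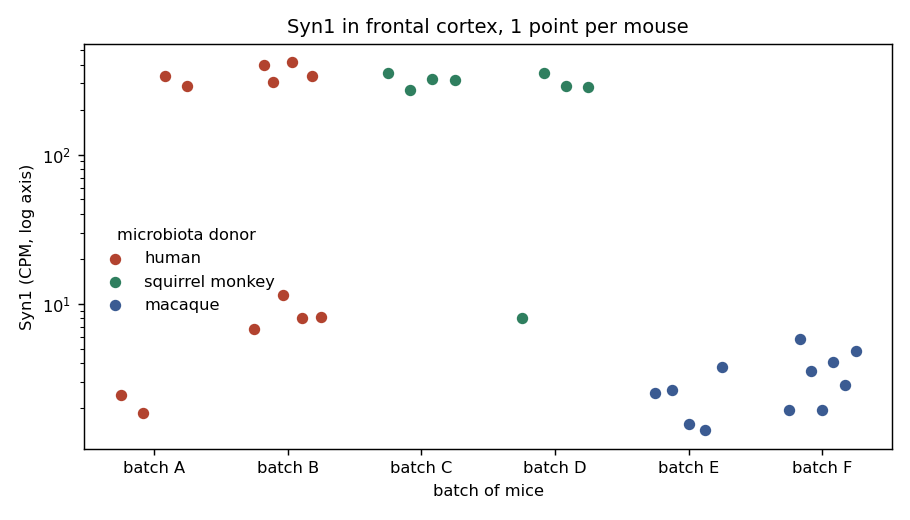
Syn1 level in CPM on a log axis (y) for each of the 32 mice, by batch (x), coloured by microbiota donor; each point is 1 mouse. Batches A, B and D hold both high and low mice, batch C only high mice and batches E and F only low mice.

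By group, Syn1 averaged 177 ± 181 CPM in human mice (SD, n = 12; median 150), 273 ± 111 CPM in squirrel monkey mice (SD, n = 8; median 303) and 3.07 ± 1.36 CPM in macaque mice (SD, n = 12; median 2.75). All squirrel monkey mice lay above all macaque mice, whereas human values spanned both. The fitted log2 difference was 5.79 ± 0.86 (SE) between human and macaque, 6.41 ± 0.87 between squirrel monkey and macaque and -0.62 ± 0.54 between human and squirrel monkey mice. These means mix mice of separate levels in the human and squirrel monkey groups. The within-group SD of log2 CPM was 2.07, rank 1 of 12651 genes that passed the filter on low counts (median 0.266). Syn1 was chosen by these same counts, so the rank is a description only. Between batches of 1 donor the fitted log2 difference was 0.30 ± 0.78 for B against A, -0.45 ± 0.87 for D against C and 0.57 ± 2.62 for F against E. Each SE given here for Syn1 comes from a fit of all mice together, high and low. The SE for F against E is thus no measure of the spread among macaque mice. Their Syn1 values were 1.415 to 3.764 CPM in batch E and 1.947 to 5.777 CPM in batch F.

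Syn2 (ENSMUSG00000009394, synapsin II) was lower in mice given human or squirrel monkey microbiota than in mice given macaque microbiota. Human mice had 688 CPM at the lowest, 877 at the median and 1064 at the highest. Squirrel monkey mice had 793, 841 and 909 CPM, and macaque mice 707, 1143 and 1382 CPM. The groups overlapped, but 0 of 12 human and 0 of 8 squirrel monkey mice exceeded the macaque median.

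Mean Syn2 was 902 ± 116 CPM in human mice (SD, n = 12), 845 ± 45 CPM in squirrel monkey mice (SD, n = 8) and 1101 ± 188 CPM in macaque mice (SD, n = 12). Syn2 fell by 0.29 on the log2 scale in human against macaque mice (SE 0.08, adjusted p = 0.0139, edgeR quasi-likelihood test over 12651 genes). It fell by 0.38 in squirrel monkey against macaque mice (SE 0.09, adjusted p = 0.0222, same test). Of the 12651 genes, 8.01% passed in the first comparison and 0.640% in the second. Human and squirrel monkey mice differed by 0.09 ± 0.09 (95% interval -0.07 to 0.26, adjusted p = 0.779), a comparison in which 0.134% of genes passed.

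Syn2 varied little within batches C and D, at 793 to 909 CPM, and most within macaque batch F, at 707 to 1382 CPM. Between batches of 1 donor the log2 difference was 0.16 ± 0.12 for B against A (adjusted p = 0.6), 0.03 ± 0.13 for D against C (adjusted p = 0.982) and -0.08 ± 0.11 for F against E (adjusted p = 1). In these comparisons 0.0237%, 0% and 0% of all genes passed in edgeR. For D against C and F against E, where 883 and 399 genes had an unadjusted p below 0.05, DESeq2 also called 0 genes. The call against macaque was lost for human mice without batch A (-0.24, adjusted p = 0.132) or batch E (-0.26, adjusted p = 0.133). For squirrel monkey mice it was lost without any 1 of batches C, D, E and F (-0.36, -0.39, -0.35 and -0.43, adjusted p = 0.382, 0.133, 0.181 and 0.0732) and without squirrel monkey replicate 1, 2 or 8 (-0.37, -0.37 and -0.38, adjusted p = 0.0718, 0.0756 and 0.0514).

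Syn3 (ENSMUSG00000059602, synapsin III) was read at 2 to 25 counts per mouse and did not pass the filter on low counts. Human batch A had 7, 25, 18 and 12 counts and batch B 5 to 16 counts. Squirrel monkey mice had 2 to 14 counts and macaque mice 3 to 10. The groups overlapped throughout.

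Mean Syn3 was 6.64 ± 3.14 CPM in human mice (SD, n = 12), 5.18 ± 2.43 CPM in squirrel monkey mice (SD, n = 8) and 5.15 ± 1.85 CPM in macaque mice (SD, n = 12). In the fit without the filter (23685 genes) the log2 difference from macaque was 0.39 ± 0.24 for human mice (adjusted p = 0.457) and 0.04 ± 0.29 for squirrel monkey mice (adjusted p = 1). It was 0.34 ± 0.27 for human against squirrel monkey mice (95% interval -0.18 to 0.87, adjusted p = 0.751). Batches of 1 donor differed by as much, with -0.74 ± 0.30 for B against A (adjusted p = 0.491) and 0.71 ± 0.36 for F against E (adjusted p = 0.997). No difference of Syn3 passed the test, and 1 count in a mouse of median depth is a large step at this level.

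Araf (ENSMUSG00000001127), which meets Syn1 tail to tail, did not share the split. Its counts were 260 to 456 in human, 272 to 405 in squirrel monkey and 196 to 397 in macaque mice. Mean Araf was 225 ± 12.3 CPM in human mice (SD, n = 12), 243 ± 12.0 CPM in squirrel monkey mice (SD, n = 8) and 237 ± 26.5 CPM in macaque mice (SD, n = 12). No mouse lay outside 191 to 275 CPM, and the groups overlapped.

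The log2 difference of Araf was -0.08 ± 0.05 for human against macaque mice (95% interval -0.18 to 0.03, adjusted p = 0.397). It was 0.04 ± 0.06 for squirrel monkey against macaque mice (-0.08 to 0.15, adjusted p = 0.841) and -0.11 ± 0.06 for human against squirrel monkey mice (-0.23 to -0.00065, adjusted p = 0.516). The last interval lies wholly on the negative side, but the quasi-likelihood test gave p = 0.0559 before adjustment, above the threshold. The within-group SD of log2 CPM of Araf, 0.117, ranked 12384 of 12651. None of the batches of 1 donor differed past the threshold (log2 differences 0.05, -0.07 and -0.04, adjusted p = 0.851, 0.946 and 1).

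Timp1 (ENSMUSG00000001131), inside the Syn1 intron, was read at 0 to 7 counts per mouse and was lower in squirrel monkey than in macaque mice. Each macaque mouse had at least 1 count, with 7, 4, 5, 2 and 5 in batch E and 2, 7, 5, 6, 1, 3 and 7 in batch F. Squirrel monkey batch C had 0 in all 4 mice, and batch D had 2, 2, 0 and 0. Human batch A had 4, 2, 3 and 0 counts and batch B 0, 1, 0, 2, 1, 7, 1 and 4. A count of 0 in a mouse allows a level of up to 1.45 to 2.54 CPM over the 9 such mice (3 counts per mouse). Over the 4 mice of batch C together it allows 0.533 CPM, counting error only.

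Mean Timp1 was 1.251 ± 1.213 CPM in human mice (SD, n = 12), 0.379 ± 0.709 CPM in squirrel monkey mice (SD, n = 8) and 3.12 ± 1.29 CPM in macaque mice (SD, n = 12). In the fit without the filter, Timp1 fell by 2.90 on the log2 scale in squirrel monkey against macaque mice (SE 0.60, adjusted p = 0.014), and 0 of 8 squirrel monkey mice exceeded the macaque median. In human against macaque mice the log2 difference was -1.29 ± 0.40 (adjusted p = 0.0623), and only 1 of 12 human mice exceeded the macaque median. Human and squirrel monkey mice differed by 1.61 ± 0.69 (95% interval 0.26 to 2.96 before adjustment, adjusted p = 0.585). Without the filter, 3.27%, 0.355% and 0.00422% of genes passed for human against macaque, squirrel monkey against macaque and human against squirrel monkey mice.

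The Timp1 call in squirrel monkey mice rests on few counts, 4 in the squirrel monkey group and 54 in the macaque group. It was lost without batch C (-2.05, adjusted p = 0.547), E (-2.87, adjusted p = 0.0777) or F (-2.95, adjusted p = 0.135). It was also lost without squirrel monkey replicate 2 (-2.71, adjusted p = 0.0583) and without the 6 mice of high oligodendrocyte markers (-2.60, adjusted p = 0.0522). Without batch D all remaining squirrel monkey mice were at 0. In human against macaque mice it passed without human replicate 10 (-1.59, adjusted p = 0.02), human replicate 12 (-1.41, adjusted p = 0.0414), macaque replicate 10 (-1.37, adjusted p = 0.0474) or those 6 mice (-1.47, adjusted p = 0.0485).

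**Figure D3:**
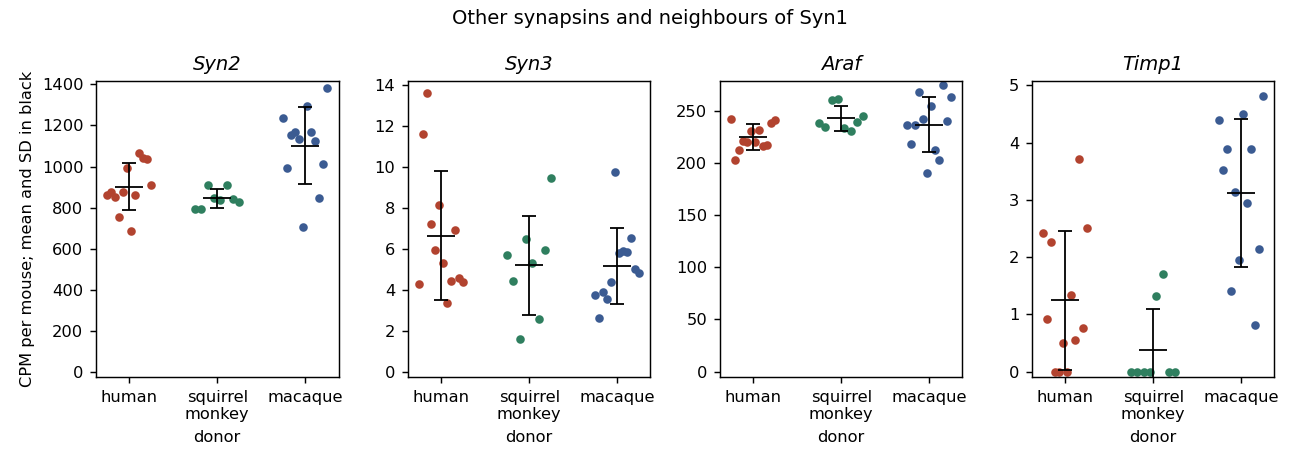
Level in CPM (y) of Syn2, Syn3, Araf and Timp1 by microbiota donor (x), each panel with its own y axis from 0; points are mice, and black marks give mean and SD. Syn2 lies lower in human and squirrel monkey than in most macaque mice, Araf and Syn3 overlap, and Timp1 is at 0 in 6 of 8 squirrel monkey mice.

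Syn1 and Timp1 were set side by side in the same mice, since Timp1 lies within Syn1. In batch C, Syn1 had 408 to 491 counts and Timp1 had 0. In batch D the mouse with 12 Syn1 counts had 2 Timp1 counts, and the mice with 411, 435 and 417 Syn1 counts had 2, 0 and 0. In human batch A, Syn1 counts of 4, 4, 448 and 482 stood beside Timp1 counts of 4, 2, 3 and 0. In human batch B, Syn1 counts of 8, 791, 632, 17, 747, 15, 444 and 13 stood beside Timp1 counts of 0, 1, 0, 2, 1, 7, 1 and 4. The human mouse with 7 Timp1 counts had 15 Syn1 counts, and the one with 3 Timp1 counts had 448. The macaque mice, all low in Syn1, had 1 to 7 Timp1 counts. Whether the 2 genes moved against each other within groups was not tested.

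**Figure D4:**
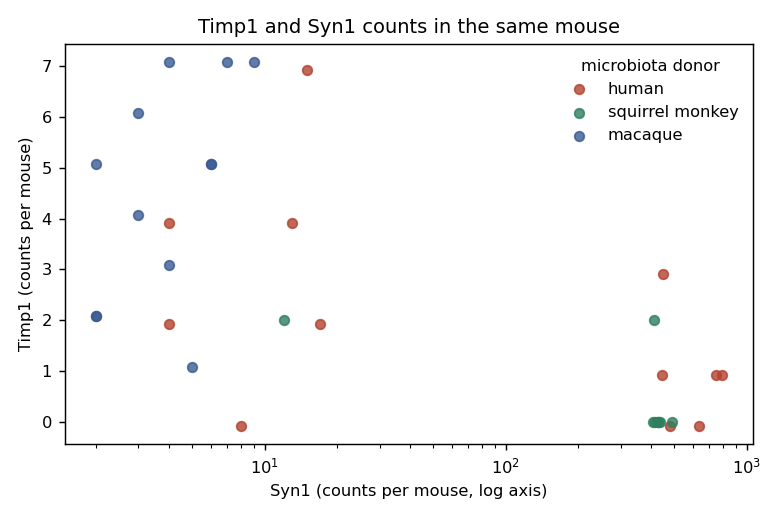
Timp1 counts (y) against Syn1 counts on a log axis (x), 1 point per mouse, coloured by donor; points of the human and macaque groups are shifted slightly down and up so that they can be seen. The 4 mice of batch C lie at 408 to 491 Syn1 counts and 0 Timp1 counts, and the 12 macaque mice at 2 to 9 Syn1 counts and 1 to 7 Timp1 counts.

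The TIMP genes in the other synapsin genes did not differ between donors past the threshold. Timp4, inside Syn2 and best known from heart and brain, averaged 39.1 ± 6.23 CPM in human mice (SD, n = 12), 37.7 ± 9.30 CPM in squirrel monkey mice (SD, n = 8) and 39.5 ± 7.78 CPM in macaque mice (SD, n = 12). Its log2 difference from macaque was -0.02 ± 0.11 in human and -0.07 ± 0.13 in squirrel monkey mice (adjusted p = 0.936 and 0.867). Timp3, inside Syn3 and bound to the extracellular matrix, averaged 15.2 ± 4.70, 16.7 ± 4.98 and 15.4 ± 3.78 CPM in the same order. Its log2 difference from macaque was -0.01 ± 0.17 and 0.12 ± 0.19 (adjusted p = 0.983 and 0.837). In human against macaque mice the direction of both changed with library totals or without single mice. In squirrel monkey against macaque mice it held under those changes. There it reversed without batch C or F for Timp4 and without batch D for Timp3.

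None of 3 neuronal reference genes passed the test in a donor comparison. Rbfox3, which encodes the nuclear marker NeuN, averaged 258 ± 34.3 CPM in human mice (SD, n = 12), 246 ± 19.6 CPM in squirrel monkey mice (SD, n = 8) and 251 ± 35.3 CPM in macaque mice (SD, n = 12). Snap25, a SNARE protein of the presynaptic membrane, differed from macaque by -0.07 ± 0.07 in human and 0.01 ± 0.07 in squirrel monkey mice on the log2 scale (adjusted p = 0.58 and 0.976). Syp, the vesicle protein synaptophysin, differed by -0.03 ± 0.05 and -0.07 ± 0.06 (adjusted p = 0.795 and 0.671). Rbfox3 differed by 0.04 ± 0.07 and -0.03 ± 0.08 (adjusted p = 0.783 and 0.916).

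**Figure D5:**
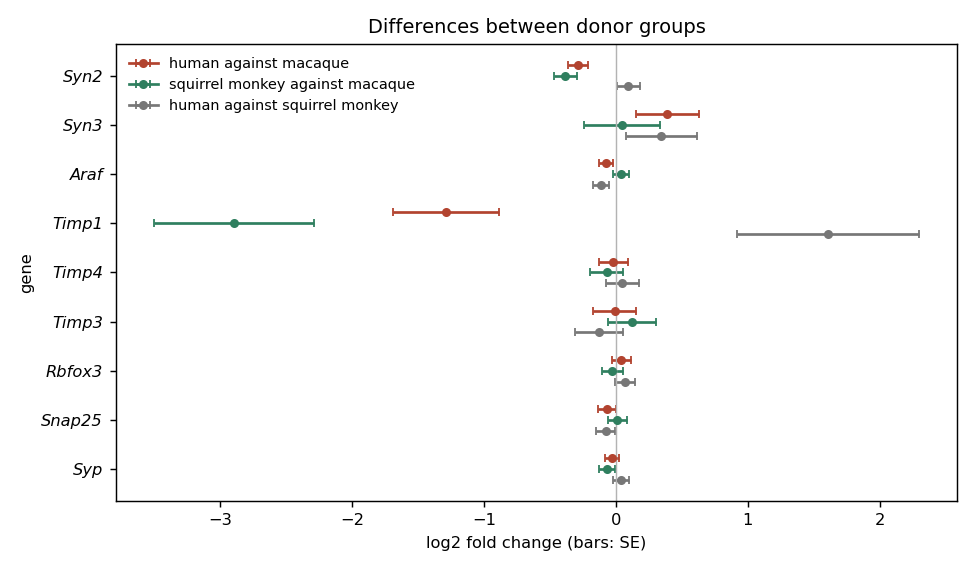
Log2 difference between donor groups (x, bars are SE) for Syn2, Syn3, Araf, Timp1, the nested genes Timp4 and Timp3 and 3 neuronal reference genes (y); Syn3 and Timp1 come from the fit without the filter on low counts, and Syn1 is left out for its scale. Syn2 lies below 0 in both comparisons with macaque mice, and Timp1 lies farthest from 0.

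Genes around Syn1 on the X chromosome were counted from a list of 14, of which 12 passed the filter. In each of the 3 donor comparisons 0 rose and 0 fell, with a median log2 difference of -0.08 in human against macaque mice (median of all genes -0.00105). Of all genes, 8.01% passed in human against macaque mice, 0.640% in squirrel monkey against macaque and 0.134% in human against squirrel monkey mice. Elk1, a transcription factor upstream of Syn1, averaged 80.1 ± 16.7 CPM in human mice (SD, n = 12), 72.2 ± 9.71 CPM in squirrel monkey mice (SD, n = 8) and 77.9 ± 12.3 CPM in macaque mice (SD, n = 12). Cfp, the complement regulator properdin and the nearest gene upstream, had a log2 difference of 0.38 ± 0.18 in human against macaque mice (adjusted p = 0.186). Rbm10, an RNA-binding protein, had 0.21 ± 0.08 (adjusted p = 0.086). Uba1, the ubiquitin-activating enzyme, had -0.15 ± 0.06 (adjusted p = 0.124). It passed without the 6 mice of high oligodendrocyte markers (-0.21 ± 0.07, adjusted p = 0.0454), where 0 of 11 genes of the list rose and 1 fell, beside 6.36% of all 12676 genes tested there.

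Of 22 kinases, phosphatases and their subunits that act on synapsins, 2 rose and 0 fell in human against macaque mice, with a median log2 difference of -0.11. Of all 12651 genes tested, 8.01% passed in that comparison. Ppp3r1, the regulatory subunit of calcineurin, rose by 0.38 ± 0.09 on the log2 scale (adjusted p = 0.0056), to 315 ± 60.6 CPM in human from 243 ± 37.8 CPM in macaque mice (SD, n = 12 each). Prkaca, a catalytic subunit of protein kinase A, rose by 0.26 ± 0.08 (adjusted p = 0.0493), to 99.9 ± 14.2 CPM from 83.7 ± 10.9 CPM. Camk1d, a calcium-dependent kinase, had -0.20 ± 0.07 (adjusted p = 0.0504). In squirrel monkey against macaque mice 0 of 22 passed, beside 0.640% of all genes, and Prkaca had 0.33 ± 0.09 (adjusted p = 0.088).

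Of 22 other synaptic vesicle proteins, 2 rose and 2 fell in human against macaque mice (median -0.01), beside 8.01% of all genes. Slc17a7, the vesicular glutamate transporter of cortical excitatory neurons, rose by 0.25 ± 0.07 (adjusted p = 0.0163). Slc32a1, the vesicular GABA transporter, rose by 0.46 ± 0.13 (adjusted p = 0.0277). Rab3c, a vesicle GTPase, fell by 0.25 (SE 0.07, adjusted p = 0.0321), and Syt1, the calcium sensor of release, fell by 0.17 (SE 0.06, adjusted p = 0.0418). Sv2c, a synaptic vesicle glycoprotein named after its values were seen, had 0.57 ± 0.20 (adjusted p = 0.0695), and 0.71 ± 0.22 without the 6 mice of high oligodendrocyte markers (adjusted p = 0.0473). In squirrel monkey against macaque mice 0 of 22 passed, beside 0.640% of all genes. There Synpr, the vesicle protein synaptoporin, had -0.92 ± 0.25 (adjusted p = 0.0635), and Slc17a6 had 0.85 ± 0.22 (adjusted p = 0.0613).

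Of 12 genes for vesicle clustering and endocytosis, 0 rose and 1 fell in human against macaque mice (median -0.06), the active zone scaffold Pclo (-0.27 ± 0.07, adjusted p = 0.0174). Of 16 pan-neuronal genes, 0 rose and 2 fell (median -0.08). Both counts stand beside 8.01% of all genes. Tubb3, a neuronal tubulin, had -0.23 ± 0.06 (adjusted p = 0.0157) and Nefm, the medium neurofilament chain, -0.39 ± 0.12 (adjusted p = 0.043). In squirrel monkey against macaque mice 0 of 12 and 0 of 16 passed, beside 0.640% of all genes.

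Of 9 genes of REST and its corepressors, 1 rose and 0 fell in human against macaque mice (median -0.05), beside 8.01% of all genes. Rcor2, a corepressor subunit, rose by 1.34 ± 0.22 (adjusted p = 7.88e-05), to 9.01 ± 2.35 CPM in human from 3.531 ± 1.503 CPM in macaque mice (SD, n = 12 each), and had 0.54 ± 0.27 in squirrel monkey mice (adjusted p = 0.391). Of 15 other genes of the RAF-MEK-ERK cascade, beside the same 8.01%, 0 rose and 1 fell (median -0.07). That was Map2k1, the kinase MEK1 below A-Raf, with 163 ± 13.3 against 198 ± 33.6 CPM (SD, n = 12 each; -0.29 ± 0.07, adjusted p = 0.012). It had -0.29 ± 0.08 in squirrel monkey mice (adjusted p = 0.09).

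Of 16 TIMPs, metalloproteinases and related genes 12 passed the filter, and 3 rose and 0 fell in human against macaque mice (median 0.03). In that comparison 8.01% of all genes passed. Mmp14, a membrane-bound protease, rose by 0.49 ± 0.13 (adjusted p = 0.0129) and Cd63, a surface receptor of TIMP-1, by 0.48 ± 0.13 (adjusted p = 0.0192). Adamts4, a protease made by oligodendrocytes, rose by 1.37 ± 0.36 (adjusted p = 0.0142). Without the 6 mice of high oligodendrocyte markers it had 0.46 ± 0.23 (adjusted p = 0.249). Of 10 reactive astrocyte genes 6 passed the filter and 0 rose or fell (median 0.27), beside the same 8.01%. Serpina3n had 1.16 ± 0.42 (adjusted p = 0.0755) and Hspb1 0.57 ± 0.19 (adjusted p = 0.0556). Cd44, a hyaluronan receptor, had -0.60 ± 0.24 (adjusted p = 0.108), at 8.51 ± 4.27 CPM in human and 12.6 ± 5.47 CPM in macaque mice (SD, n = 12 each).

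Across these 9 lists, 14 calls were made in human against macaque mice and 0 in the other donor comparisons and between batches of 1 donor. Leaving out the 6 mice of high oligodendrocyte markers, 5 of the 14 still passed (Ppp3r1, Slc17a7, Rcor2, Map2k1 and Mmp14). All 14 kept their direction, and the other 9 no longer passed. Of these, Prkaca had 0.29 (adjusted p = 0.0527), Slc32a1 0.44 (0.0639) and Cd63 0.42 (0.051) in that fit. Rab3c had -0.20 (adjusted p = 0.103), Syt1 -0.15 (0.11), Pclo -0.25 (0.0584), Tubb3 -0.20 (0.0691) and Nefm -0.37 (0.061). These 8 log2 differences stayed near those in all mice, whereas that of Adamts4 fell to 0.46. Sv2c and Uba1 passed in that fit and not in all mice, so that 7 genes of the lists passed there, beside 6.36% of all genes. In all mice 8.01% of all genes passed in human against macaque mice, against which each count there is to be read. The share was 0.640% in squirrel monkey against macaque and 0.134% in human against squirrel monkey mice. Between batches it was 0.0237% (B against A), 0% (D against C) and 0% (F against E). The counts of 0 in the lists are near these shares, so they are not particular to the listed genes.

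Likeness to Syn1 over the 32 mice was ranked by Spearman's rho of log2 CPM among 12130 genes with at least 5 CPM on average. Genes with no symbol and unnamed gene models (Gm numbers and Rik names) were left out. The genes most like Syn1 were Zfp101 (0.695), Rpl9 (0.69), Ier3 (0.656), Ptk7 (0.653) and Rpl28 (0.648). The mice share donor and batch, and Syn1 fell into separate levels, so the values describe these mice only. Zfp101, a zinc finger gene, averaged 1365 ± 330 CPM in human mice (SD, n = 12), 1441 ± 307 CPM in squirrel monkey mice (SD, n = 8) and 835 ± 133 CPM in macaque mice (SD, n = 12). With group means removed, rho was 0.31 for Zfp101, 0.519 for Rpl9, 0.32 for Ier3, 0.309 for Ptk7 and 0.289 for Rpl28. Within the 12 human mice it was 0.434, 0.49, 0.846, 0.336 and 0.217 in that order. None of these genes had a gap like that of Syn1: Ier3, an early response gene, ranged from 11.6 to 21.6 CPM in human and from 5.5 to 17.6 CPM in macaque mice. The ribosomal protein genes Rpl9 and Rpl28 have processed copies in the genome, which makes their counts uncertain.

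The least like Syn1 were Ago3, an Argonaute protein (rho -0.647), the metalloprotease gene Adam19 (-0.633) and Hs1bp3 (-0.608). With group means removed their rho was -0.387, -0.399 and -0.382, and within the 12 human mice -0.699, -0.483 and -0.734. The genes most like Syn2 were Svop, a transporter-like protein of synaptic vesicles (rho 0.859 over 32 mice, 0.73 with group means removed), Slc39a10, a zinc transporter (0.854 and 0.708), and Akirin2 (0.851 and 0.602). For Araf they were the proteasome subunit Psmb7 (0.82 and 0.783), the mitochondrial ADP/ATP carrier Slc25a4 (0.769 and 0.753) and Serpini1, neuroserpin (0.766 and 0.678). The genes most like Syn2 and Araf were chosen after their values were seen.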

How the data were processed

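RNA of the frontal cortex of 32 mice was counted per gene. The deposited values are raw whole-number counts per Ensembl gene in 1 table of 23958 rows, and per the labels libraries were TagSeq single reads. The build is GRCm39, per the submitters' processing notes; the sources used here do not give the aligner, counting tool, annotation or use of strand. A further 3 columns of counts matched no sample and were not used. Rows without a symbol (76) held 0.031% of counts. Sequences (RefSeq, GRCm38.p6) and gene models (GENCODE M21) belong to another build than the counts, so no count was placed by coordinate.

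Counts were fitted with edgeR 4.0.16 in R 4.3.3: filterByExpr by donor (minimum count 10, total 15), TMM scaling (factors 0.955 to 1.04), and the quasi-likelihood test on all 32 mice, once with donor and once with batch as the only term. Benjamini-Hochberg adjustment covered all genes tested, with a threshold of 0.05. CPM uses the scaled totals of the filtered genes. The SE is the log2 difference divided by the root of the F statistic, and intervals are 1.96 SE. Syn3 and Timp1 did not pass the filter, so their values come from a fit of all 23685 genes with a count, not from the planned test. Over 160 pairs of same-donor mice, counts had a chi-square per gene of 1.41 to 7.24, so no pair differed by counting error alone. This cannot exclude separate libraries of the same mouse, and pairs of different donors were not compared. Members, lists and named genes were chosen with earlier results of these data known: from each list up to 3 genes of smallest p in a comparison, and for Syn1 the 5 genes of highest and 3 of lowest rho. Alternatives were DESeq2 1.42.0, other scaling, no filter, batches as levels, and leaving out each batch or mouse. Added after seeing the data were leaving out the 6 mice of high oligodendrocyte markers, and the same alternatives without the filter for Syn3 and Timp1. The fit was tested on simulated data.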

Additional observations from a re-analysis of the deposited data

Results flagged for a closer look

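Squirrel monkey replicate 5, of batch D, had a Syn1 level of 7.985 CPM, whereas the nearest of the other 7 squirrel monkey mice had 268.8 CPM. The gap was 0.761 of the range of the 8 mice. Macaque replicate 6, of batch F, had the highest Syn3 level of its 7 mice, 9.733 CPM against 6.524 CPM in the next (0.653 of the range), on 10 counts and the lowest total count of all mice. Syn1 was chosen by its counts in these mice, so its value is a description. For the other members 1 of 27 sets of 4 to 8 mice had a value this far apart. Chance can mark such a value too, and its rate was not worked out, because the sets share mice.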

How the results depend on the processing

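Syn1 kept its direction in the 3 donor comparisons under all alternatives (human against macaque 5.57 to 6.15, squirrel monkey against macaque 6.17 to 6.77). In human against squirrel monkey mice the log2 difference of Syn1 was -0.84 to -0.34, beside -0.62 ± 0.54 (SE) in the main fit. Syn1 was chosen by these same counts, so its kept direction is a description and no support. Araf passed in none. The Syn2 calls lost, and those of Timp1 lost or gained, are given in the report; the cause was not tested, beyond fewer mice entering those fits. Syn2 in human against macaque mice stayed between -0.41 and -0.24 over 12 alternatives. Counts of 0 to 7 limit Timp1, and 2 to 25 limit Syn3.

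The number of genes called in squirrel monkey against macaque mice, 81, was 156 with DESeq2, 34 without the 6 mice of high oligodendrocyte markers, 151 without batch B, 2 without batch C, 10 without batch E and 0 without batch F (edgeR; 1403 at an unadjusted p below 0.05, DESeq2 not run there). For human against squirrel monkey mice, 17, it was 97 with DESeq2, 1 without the filter, 47 without the 6 mice, 46 with batches as levels, and 3, 58, 63, 1 and 2 without batches A, B, C, D and E. For human against macaque mice, 1013, it was 472, 390 and 337 without batches A, E and F. For batch B against A, 3, it was 0 with library totals (edgeR; 1443 at an unadjusted p below 0.05), 6 without the filter and 10 with DESeq2. Leaving out 1 mouse gave 28 to 131, 2 to 67, 770 to 1146 and 0 to 5 genes in the same order. The lowest and highest for squirrel monkey against macaque came without squirrel monkey replicate 2 and macaque replicate 6.

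Reversed log2 differences were small. For human against macaque, Timp4 was 0.00199 with library totals, 0.0217 with batches as levels, 0.0974 without batch B and 0.0677 without batch F, and -0.0580 to 0.0327 without 1 mouse. Timp3 was 0.0139 with library totals, 0.0569 with batches as levels, 0.150 without batch B and 0.152 without batch F, and -0.0712 to 0.0697 without 1 mouse. For squirrel monkey against macaque, Timp4 was 0.0983 without batch C and 0.0237 without batch F, Timp3 -0.169 without batch D, and Syn3 -0.139 and -0.207 without batches D and E. Without the filter, Syn3 there was -0.151 and -0.213 without those batches, -0.0800 without the 6 mice, and -5.13e-05, -0.130 and -0.00196 without squirrel monkey replicates 4 and 8 and macaque replicate 2 (0.175 at the highest). For human against squirrel monkey, Syn2 was -0.0215 without batch B, Timp3 0.0273 without batch B and 0.165 without batch D, and Timp4 -0.0211 and -0.120 without batches A and C and -0.0200 to 0.142 without 1 mouse. Between batches and without 1 mouse, Syn1 was -0.136 to 0.988 (B against A), Syn2 -0.147 to 0.00157 and Araf -0.0783 to 0.00447 (F against E).

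No paired analysis was possible because the labels give no replicate numbers; those used here follow the order of deposit and only name mice.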
